A study of Brassica rapa with 12 samples.

Results

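Among the genes of *Brassica rapa* seedlings, 89 were read well in light in both of 2 lines and fell to a small part of that level in the dark in both. Light-only here means a low dark share, not an absence of dark reads. These light-only genes were chosen by their levels in CPM, the reads of a gene scaled to a library of 1000000 reads. A gene qualified when its light mean reached 10 CPM in each line, with a dark mean of at most 1/32 of the light mean in each line. The files list 42186 features, of which 41018 carry an ID that starts with Bra, and 11808 of these reached 10 CPM in light in both lines. The 89 members are 0.754% of those 11808. The libraries came from 1-week-old whole plants in 4 groups of 3. The light groups, LP08 light and Chiifu light, were lit for 16 h a day with 8 h of night, and the dark groups, LP08 dark and Chiifu dark, stayed in darkness for 24 h a day. By its title the study sets a vegetable type of the species against an oilseed type, and the sample labels do not say which line is which. No allele, agent or pooling of plants is named in the labels, and how much of the week the dark groups spent in darkness is not stated.

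A seedling kept in the dark follows a programme called etiolation, with a long stem, closed pale leaves and plastids that hold no chlorophyll. In light, phytochromes and cryptochromes, the red and blue light receptors, inactivate the PIF transcription factors and the COP1 ubiquitin ligase complex. The HY5 transcription factor then accumulates, and genes for chlorophyll, photosynthesis and protective pigments are switched on. Which of these functions the 89 members have cannot be said here, because the IDs come without gene names. None of the 89 was found among the genes RefSeq lists for assembly CAAS_Brap_v3.01, where 1 of all 42186 IDs was found. The members are therefore given by ID, without position, role or sequence, and the identity of the tissue could not be checked against marker genes. Members that share reads with paralogs, which the triplicated genome of the species holds in number, or with neighbours on the same or the other strand, could not be picked out either.

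Library totals ranged from 48773088 to 71764062 counts, so that 3 counts, the most that a count of 0 allows, were at most 0.0615 CPM. Intervals and floors of this kind cover counting error only. Nothing in the labels tells whether the 3 replicates of a group were grown apart, so that p-values here weigh differences only against the spread between libraries, part of which may be technical. Fewer cells of a type and less RNA per cell cannot be told apart in whole seedlings.

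As a share of unscaled library totals, the members held a small and similar part of the counts of both lines in light. They took 2.66 ± 0.27% of all counts in LP08 light and 2.60 ± 0.21% in Chiifu light, against 0.0366 ± 0.0176% in LP08 dark and 0.0371 ± 0.0040% in Chiifu dark (SD, n = 3 each). The difference between light and dark is what chose the members and is a description. By library, they took 2.48%, 2.53% and 2.97% in LP08 light and 2.81%, 2.398% and 2.58% in Chiifu light. The ranges of the lines overlapped.

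Levels within the set were very uneven. The median member was at 37.9 CPM in LP08 light and 40.9 CPM in Chiifu light, while the highest reached 6550 CPM in LP08 light and 5010 CPM in Chiifu light. Levels of 100 CPM or more were reached by 25 members in each line. The 5 members with the highest light level made up 58.9% of the members' CPM in LP08 light and 59.8% in Chiifu light. Among the top 100 features by count, 7 were members in LP08 light and 7 in Chiifu light, against 0 in each dark group. CPM are not corrected for the length of a gene, so that a higher value of one member than of another is not a higher number of transcripts. Across members, the log2 light means of the lines gave a Pearson r of 0.90 and a Spearman rho of 0.75 (89 members, which share the same libraries and are not independent replicates).

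**Figure D1:**
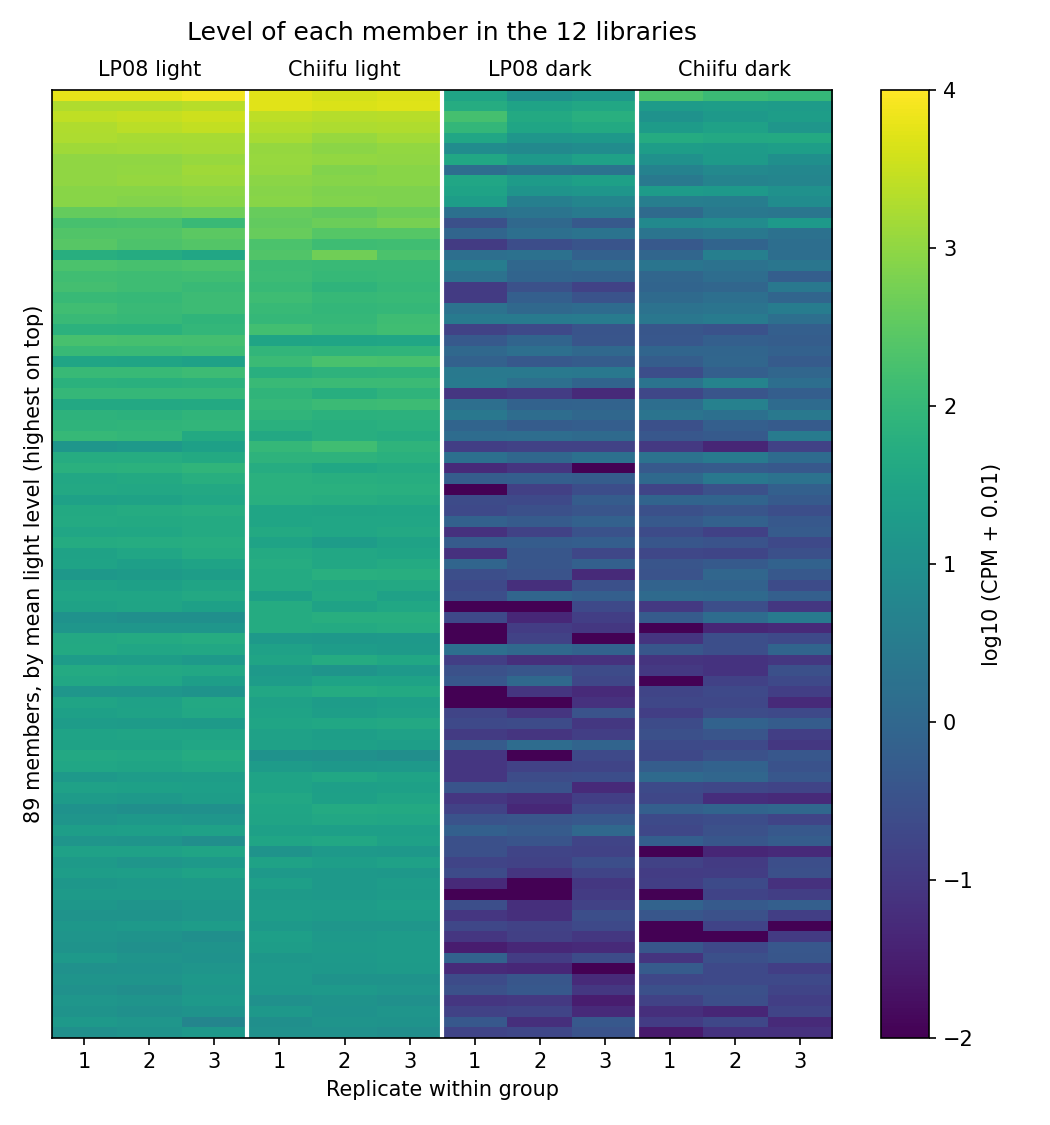
Level of each of the 89 members (rows, sorted by their mean level in light) in the 12 libraries (columns), coloured by log10 of CPM plus 0.01. The light columns run from yellow to green down the page and the dark columns from green to dark blue, and no member has its lowest light library under its highest dark library of the same line.

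The heat map of the members by library shows the choice of the set and its spread. In each line, all 89 members had their lowest light library above their highest dark library. The smallest such ratio for a member was 12.1 in LP08 and 13.3 in Chiifu, since the rule was applied to means. The light mean was 32.2 to 1918 times the dark mean in LP08, with a median of 99.3, and 32.1 to 2016 times in Chiifu, with a median of 97.9. Over all 11808 IDs with 10 CPM in light in both lines, the median was 0.948 times in LP08 and 0.965 times in Chiifu. A dark mean of at most 1/32 of light was found for 1.32% of these IDs in LP08 and for 1.25% in Chiifu. This is the contrast that chose the members, and nothing is read from it.

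Bra028406 was the member with the highest mean over both lines in light. It was at 5895, 5961 and 7793 CPM in LP08 light and at 5431, 4139 and 4749 CPM in Chiifu light. In the dark it was at 31.3, 11.7 and 16.2 CPM in LP08, against 201, 122 and 99.5 CPM in Chiifu. The 3 LP08 light libraries stood above the 3 Chiifu light libraries and the 3 LP08 dark libraries below the 3 Chiifu dark libraries. The line difference in light did not pass the test (log2 fold change 0.64, SE 0.34, edgeR adjusted p = 0.148), and did so when only the 6 light libraries were in the fit (0.62, adjusted p = 0.0264).

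Bra022976, the next in level, was lower in LP08. It was at 1893, 1925 and 2241 CPM in LP08 light, against 5433, 4626 and 4971 CPM in Chiifu light (log2 fold change -1.13, SE 0.21, edgeR adjusted p = 0.000774). In the dark the order was turned, with 53.1, 29.8 and 39.2 CPM in LP08, against 19.3, 22.2 and 20.1 CPM in Chiifu. No library of one line overlapped with one of the other in light or in the dark.

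Bra039070, Bra002999 and Bra030303 completed the 5 most abundant members. Bra039070 was at 2684, 2919 and 3417 CPM in LP08 light and at 2592, 2116 and 2317 CPM in Chiifu light, with 171, 43.7 and 60.6 CPM in LP08 dark and 11.6, 16.8 and 21.4 CPM in Chiifu dark. Its light libraries did not overlap between the lines, but the difference missed the threshold (log2 fold change 0.54, SE 0.42, edgeR adjusted p = 0.314) unless the fit held only the 6 light libraries (adjusted p = 0.028). Bra002999 was at 1891, 2379 and 2846 CPM in LP08 light and at 2057, 1864 and 1971 CPM in Chiifu light, with 95.3, 34.1 and 44.7 CPM in LP08 dark and 19.4, 27.1 and 14.3 CPM in Chiifu dark. The light values of the lines overlapped. Bra030303 was at 1809, 1611 and 1659 CPM in LP08 light and at 1607, 1219 and 1506 CPM in Chiifu light, with 35.1, 13.9 and 15.7 CPM in LP08 dark and 49.6, 41.1 and 43.6 CPM in Chiifu dark. For Bra002999 and Bra030303 the edgeR adjusted p of the light difference was 0.288 and 0.273.

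Light replicates differed over many members at once. In LP08 light, replicate 3 was the highest of the 3 libraries for 58 of the 89 members (65.2%), while over the 11808 IDs of at least 10 CPM it was the highest for 28.0%. In Chiifu light, replicate 1 was the highest for 55 members (61.8%), against 30.8% of those IDs. The dark libraries showed no such share, with at most 41.6% of members highest in 1 library (Chiifu dark replicate 2). The median coefficient of variation between replicates was 11.2% in LP08 light and 11.2% in Chiifu light, and 49.2% in LP08 dark and 39.7% in Chiifu dark. Bra000031 and Bra013674 had the widest light replicates. Bra000031 was at 16.3, 14.3 and 5.48 CPM in LP08 light and at 9.50, 12.5 and 11.8 CPM in Chiifu light, so that replicate 3 alone was low in LP08. Bra013674 was at 57.3, 49.2 and 35.8 CPM in LP08 light and at 230, 514 and 204 CPM in Chiifu light, where replicate 2 was the high one.

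The lines were then compared in light, a contrast that was not itself a criterion, although the light means of both lines entered the choice as a level and as the base of the dark share. LP08 was higher than Chiifu for 18 members and lower for 18, and 53 were not called (edgeR quasi-likelihood test over all 31239 tested features, adjusted p under 0.05). The 40.4% of members called lay between the 46.4% of all tested features and the 37.9% of the 11808 IDs with at least 10 CPM in light in both lines. Over all tested features 21.4% were higher and 25% lower in LP08, and over the 11808 IDs 23.9% were higher and 14% lower. Called differences of at least 2-fold were found for 7 members higher and 13 lower, 22.5% of the set, against 7.49% of the 11808 IDs and 26.5% of all tested features. The median absolute log2 fold change was 0.58 over members, against 0.33 over the 11808 IDs and 0.55 over all tested features. All 36 called members had light libraries that did not overlap between the lines. In total 30 members had all LP08 light libraries above all Chiifu ones and 31 had them all below, where 25.8% and 32.8% of the 11808 IDs did.

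**Figure D2:**
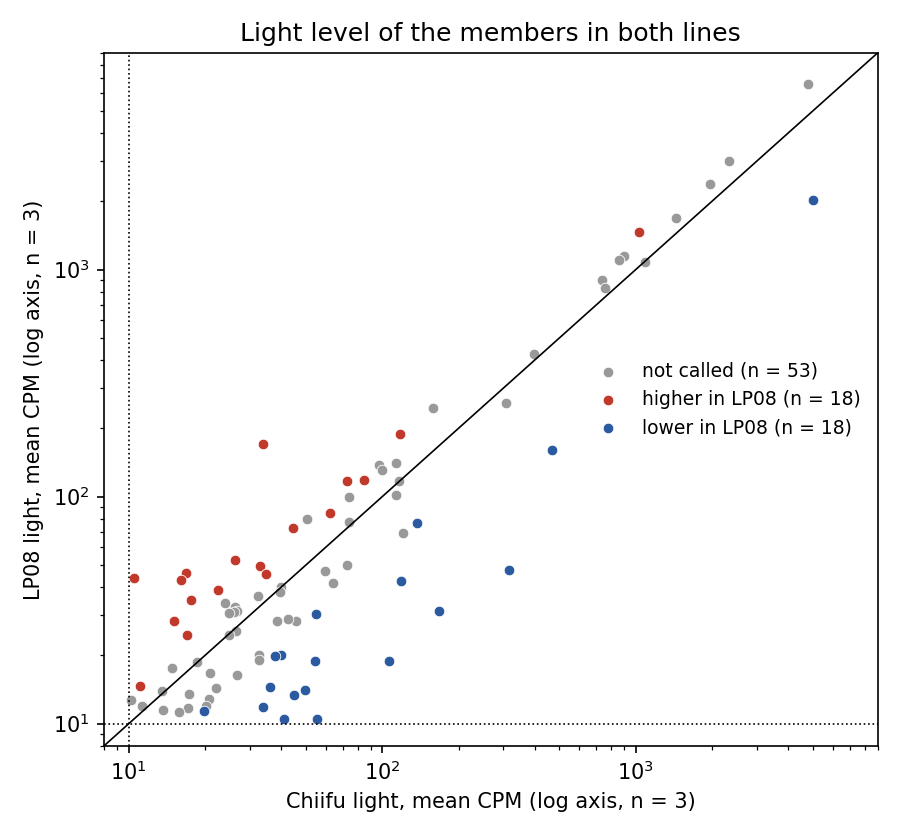
Mean light level of each member in LP08 (vertical) against Chiifu (horizontal), in CPM of the unscaled library total on log axes, n = 3 libraries each; red points were called higher in LP08 (18), blue points lower (18) and grey points were not called (53). The diagonal marks equal levels and the dotted lines the 10 CPM of the rule; blue points lie far below the diagonal at low and middle levels, and the blue point at the upper right is Bra022976.

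The counts depended on the libraries in the fit and on the scaling. With only the 6 light libraries, 30 members were higher and 30 lower, 67.4% of the set, against 55.9% of the tested features and 50.3% of the 11808 IDs in the same fit; the 36 members called with all 12 libraries were all among these 60, in the same direction. With unscaled library totals 14 members were higher and 22 lower in LP08; all tested features leaned the same way, with 14.8% higher and 30.6% lower, as did the 11808 IDs, with 13% higher and 21.4% lower. In that fit the median log2 fold change of all features was -0.19, against -0.02 with the scaled totals used here. The members' own median was 0.01 with unscaled totals and 0.18 with scaled totals. Leaving out 1 library at a time ended the call of 11 of the 36 members in at least 1 fit, and 12 higher and 13 lower were called in all 12.

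The scatter of light levels in the 2 lines shows line differences over the whole range of levels. Of the 25 members with a mean of 100 CPM or more over the lines, 4 were called with at least 2-fold, and of the 64 below it 16 were. No share of all IDs was taken at these levels, so the counts describe the members only. The median absolute log2 fold change was 0.54 at 100 CPM or more and 0.59 below it, and the classes were not tested against each other. Bra027035, Bra023441 and Bra005347 had the largest called excess in LP08. Bra027035 was at 179, 167 and 165 CPM in LP08 light and at 32.1, 34.0 and 35.4 CPM in Chiifu light (log2 fold change 2.51, SE 0.21, edgeR adjusted p = 1.51e-06). Its dark level was alike in the lines, with 0.466, 0.859 and 0.369 CPM in LP08, against 0.405, 0.630 and 0.592 CPM in Chiifu (adjusted p = 0.651). These dark levels rest on 88 reads in LP08 and 90 in Chiifu.

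Bra023441 was at 42.3, 40.6 and 48.1 CPM in LP08 light and at 11.1, 11.0 and 9.26 CPM in Chiifu light (log2 fold change 2.24, SE 0.32, edgeR adjusted p = 0.000135). It had 4, 0 and 10 reads in LP08 dark and 11, 18 and 20 in Chiifu dark. Bra005347 was at 41.0, 45.4 and 52.3 CPM in LP08 light and at 17.9, 16.1 and 16.3 CPM in Chiifu light (log2 fold change 1.64, SE 0.34, edgeR adjusted p = 0.00202). In the dark, 8 reads in LP08, all of them in replicate 2, stood against 4, 16 and 10 reads in Chiifu. For all 3 members each LP08 light library stood above each Chiifu light library.

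The largest called deficits in LP08 were those of Bra013674, Bra014635 and Bra027040. Bra013674, whose values are given above, had a log2 fold change of -2.55 (SE 0.49, edgeR adjusted p = 0.00136), and -2.05 without Chiifu light replicate 2 (adjusted p = 0.0046). Bra014635 was at 14.4, 16.9 and 25.4 CPM in LP08 light and at 99.0, 141 and 78.1 CPM in Chiifu light (log2 fold change -2.29, SE 0.28, edgeR adjusted p = 3.47e-05). It had 21 reads in LP08 dark and 14 in Chiifu dark, so that its light mean was 138 times the dark mean in LP08 and 1206 times in Chiifu. Bra027040 was at 34.2, 32.5 and 27.8 CPM in LP08 light and at 125, 192 and 183 CPM in Chiifu light (log2 fold change -2.23, SE 0.20, edgeR adjusted p = 2.98e-06). In the dark it was at 0.729, 0.439 and 0.554 CPM in LP08, against 0.581, 0.945 and 0.511 CPM in Chiifu, which overlap.

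At the other end, Bra035994, Bra026744 and Bra037385 had the smallest fitted line differences in light. Bra035994 was at 115, 106 and 82.6 CPM in LP08 light and at 98.8, 101 and 140 CPM in Chiifu light (log2 fold change 0.01, SE 0.20). Bra026744 was at 11.9, 10.2 and 12.3 CPM in LP08 light and at 15.9, 11.6 and 13.5 CPM in Chiifu light (log2 fold change -0.08, SE 0.28). Bra037385 was at 241, 232 and 302 CPM in LP08 light and at 397, 269 and 261 CPM in Chiifu light (log2 fold change -0.08, SE 0.25). The light libraries of the lines overlapped for all 3. The fitted differences use scaled totals and lie above what the CPM of the unscaled totals show.

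Residual dark reads were few beside the light reads, but present. Each of the 89 members had at least 3 reads in LP08 dark and at least 4 in Chiifu dark, and none was free of reads in either dark group. The median member had 43 reads over the 3 LP08 dark libraries and 86 over the 3 Chiifu dark libraries, against 6828 in LP08 light and 8566 in Chiifu light. By library, 3 to 7 members had no read in LP08 dark and 1 to 6 in Chiifu dark. At least 1 CPM in the group mean was left for 26 members in LP08 dark and 27 in Chiifu dark. At least 10 CPM, the light level of the rule, was left for 9 members in LP08 dark and 9 in Chiifu dark. The highest dark means were 91.8 CPM in LP08 and 141 CPM in Chiifu.

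The dark mean as a share of the light mean had a median of 1.01% in LP08 and 1.02% in Chiifu. It was at or under 1% for 44 members in each line, of which 28 were the same ones. In LP08, 15 members were at or under 0.3%, and in Chiifu 6 were. The ratios of the lines were only loosely related across members (Pearson's r = 0.20 and Spearman's rho = 0.23 on log2 ratios, 89 members, with an upper bound set by the rule). The fold of light over dark was larger in LP08 for 49 members and in Chiifu for 40, and the folds differed by 4 times or more for 14 members with the larger one in LP08 and 11 with the larger one in Chiifu. Whether these folds differ between the lines was not tested, since both are made of the contrasts that chose the members.

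**Figure D3:**
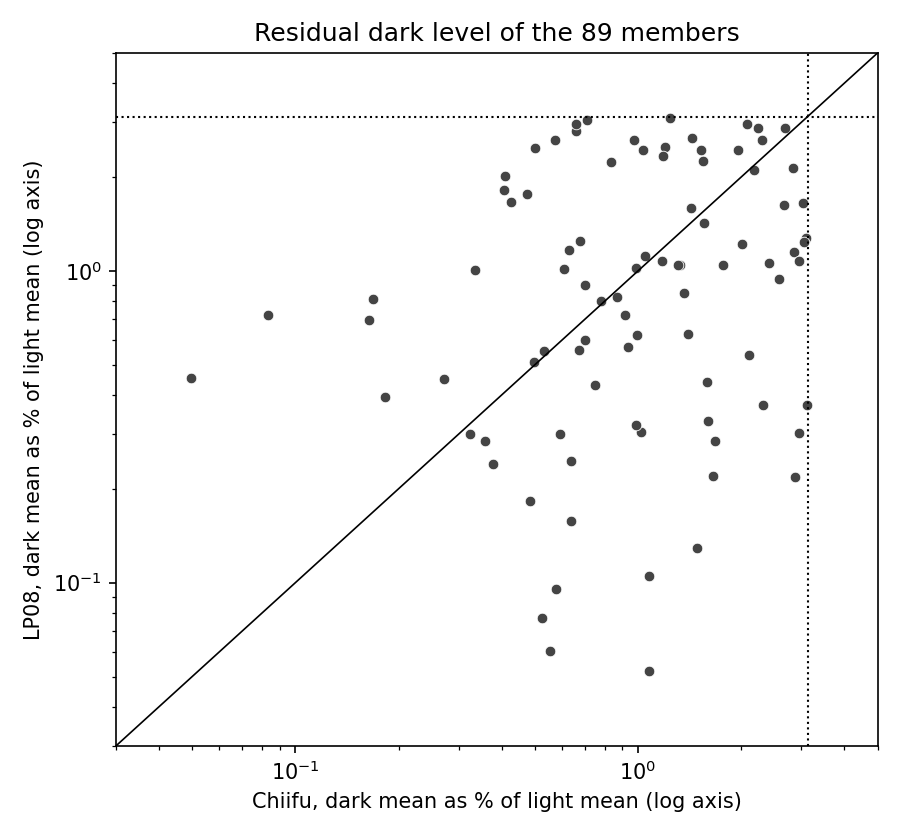
Dark mean as a percentage of the light mean for each of the 89 members, LP08 (vertical) against Chiifu (horizontal), on log axes; the diagonal marks equal shares and the dotted lines the limit of 1/32 set by the rule. The points fill the square below the limit, and members close under the limit in one line lie anywhere from close under it to far below it in the other.

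The lowest residual levels rested on a handful of reads. Members named for this were chosen after their values were seen. Bra009007 had the largest fold in LP08, with 63.9, 67.7 and 86.3 CPM in light and 2, 4 and 0 reads in the dark, 1918 times (95% exact Poisson interval of the dark reads, 881 to 5226 times). Bra012784 had the fewest reads of any member in LP08 dark, 0, 0 and 3, with 31.97, 27.1 and 42.8 CPM in LP08 light, 1656 times (567 to 8031). Bra039967 had the largest fold in Chiifu, with 49.9, 47.0 and 52.3 CPM in light and 0, 2 and 2 reads in the dark, 2016 times (787 to 7399). These intervals cover the counting of dark reads and leave out the spread of the light libraries.

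Residual dark reads were dominated by other members in one line than in the other. The summed dark level of the 89 members was 366 ± 176 CPM in LP08 and 371 ± 40.2 CPM in Chiifu (SD, n = 3 each). Bra039070 made up 25.1% of the LP08 sum and 4.48% of the Chiifu sum, and Bra002999 15.8% and 5.47%. Bra028406 made up 5.40% of the LP08 sum and 38.0% of the Chiifu sum, and Bra030303 5.90% and 12.1%. The sum was spread unevenly over the LP08 dark libraries, with 566, 235 and 298 CPM, against 413, 368 and 332 CPM in Chiifu dark.

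LP08 dark replicate 1 stood above its sister libraries in the sum, but not for most members. Its sum was 2.13 times the mean of replicates 2 and 3, and 77.0% of the excess came from its 5 largest contributors, Bra039070, Bra002999, Bra030303, Bra022976 and Bra005424. The median ratio over the 89 members was 1.03, the same as the 1.03 over all 11808 IDs with at least 10 CPM in light. Replicate 1 was above both sisters for 31 members and below both for 25. A sum in CPM weighs abundant members most. Abundant members outside the 5 contributors were also highest in replicate 1, such as Bra028406 (31.3, against 11.7 and 16.2 CPM) and Bra012203 (30.3, against 12.6 and 13.9 CPM). Bra040520, also abundant in light, was lowest there (1.36, against 2.16 and 1.89 CPM). Without LP08 dark replicate 1 the LP08 dark sum was 266 CPM and 95 IDs met the rule, 87 of them among the 89.

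**Figure D4:**
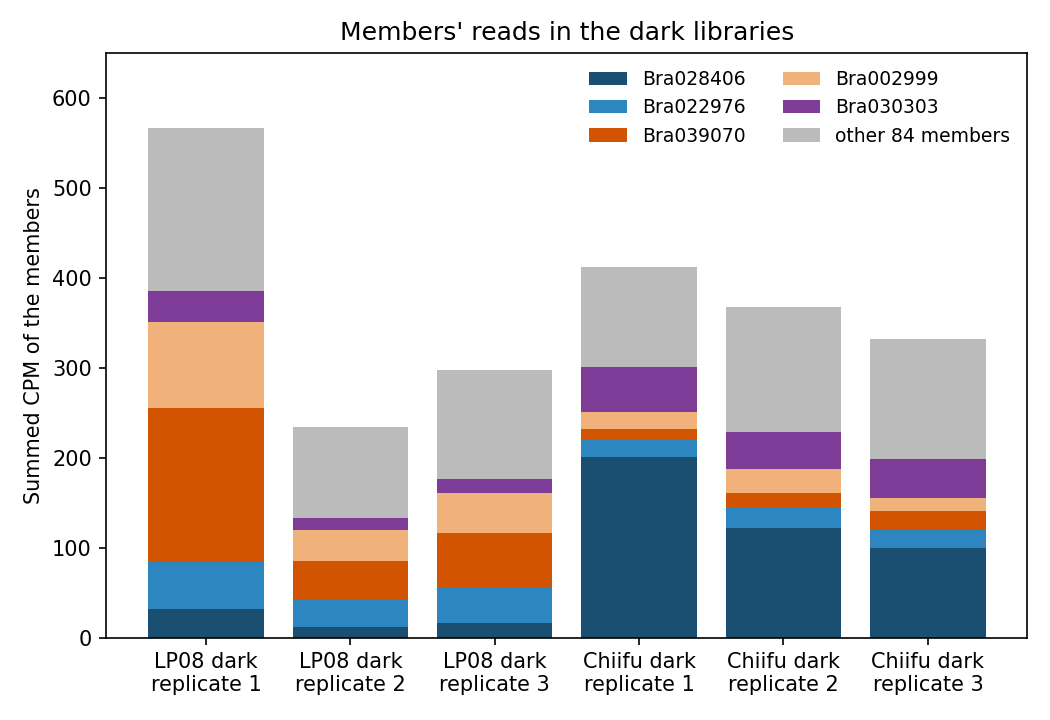
Summed CPM of the 89 members in each dark library (bars from 0), split into the 5 members with the highest light level and the other 84. LP08 dark replicate 1 is the tallest bar at 566 CPM with a large share of Bra039070, and the Chiifu bars, at 332 to 413 CPM, hold a large share of Bra028406.

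In the dark, LP08 was higher than Chiifu for 16 members and lower for 30, and 43 were not called (edgeR, adjusted p under 0.05). The 51.7% of members called was near the 53.3% of all tested features and the 51.5% of the 11808 IDs. In LP08 dark 25.4% of all tested features were higher and 27.9% lower, and of the 11808 IDs 25.7% were higher and 25.8% lower. Called differences of at least 2-fold were found for 44.9% of members, against 31.7% of all tested features and 16.7% of the 11808 IDs. All LP08 dark libraries were above all Chiifu ones for 12 members and below them for 23, where 24.3% and 29.3% of the 11808 IDs were. The rule caps the dark level of a member at a fraction of its light level, so that these counts are a description and not independent of the choice. Of the 89 members, 23 entered the fit only through their light reads, and 8 of the 46 calls are theirs. Of the 46 calls, 22 had under 30 reads in the lower of the 2 dark groups. With only the 6 dark libraries in the fit, 66 of the 89 members had enough reads to be tested, and 7 were higher and 16 lower, where 46.6% of the tested features and 40.4% of the 11808 IDs were called.

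Bra027339 and Bra014024 had the largest called excess in LP08 dark. As extremes of a contrast of dark means that the rule had used, their dark calls are a description. Bra027339 was one of those with too few dark reads for the fit of the dark libraries alone, so that its dark value rests on a fit it entered through light. It had 14, 9 and 7 reads in LP08 dark and 0, 2 and 2 in Chiifu dark (log2 fold change 3.00, SE 0.56, edgeR adjusted p = 0.000749). In light it was at 26.5, 26.6 and 31.9 CPM in LP08, against 12.3, 17.0 and 15.8 CPM in Chiifu (log2 fold change 1.097, SE 0.21, adjusted p = 0.00125). Its LP08 libraries were above those of Chiifu under both treatments. Bra014024, an abundant member, was at 36.3, 19.8 and 26.2 CPM in LP08 dark and at 2.71, 4.94 and 5.31 CPM in Chiifu dark (log2 fold change 2.74, SE 0.28, adjusted p = 7.97e-06). In light it was at 985, 1107 and 1223 CPM in LP08, against 893, 824 and 870 CPM in Chiifu, a difference that did not pass the test (log2 fold change 0.54, SE 0.26, adjusted p = 0.114) and passed with only the 6 light libraries in the fit (adjusted p = 0.0137).

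Bra029481 and Bra011078 had the largest called deficit in LP08 dark. Both were picked as extremes of a contrast of dark means that the rule had used, so their dark calls are a description. Bra029481 was at 0.284, 1.04 and 0.472 CPM in LP08 dark and at 7.22, 7.77 and 17.5 CPM in Chiifu dark (log2 fold change -4.09, SE 0.50, edgeR adjusted p = 3.98e-05). In light it was at 182, 185 and 116 CPM in LP08, against 361, 440 and 602 CPM in Chiifu (log2 fold change -1.37, SE 0.41, adjusted p = 0.0182). That light call was lost without LP08 light replicate 3 (adjusted p = 0.0555) or Chiifu light replicate 3 (0.0683). Bra011078 had 10, 2 and 6 reads in LP08 dark and 29, 79 and 143 in Chiifu dark (log2 fold change -3.64, SE 0.67, adjusted p = 0.000804). In light it was at 11.7, 9.93 and 9.84 CPM in LP08, against 49.98, 58.3 and 57.6 CPM in Chiifu (log2 fold change -2.22, SE 0.44, adjusted p = 0.0017). Both members were lower in LP08 under both treatments.

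The 5 most abundant members were all called between the lines in the dark, as were 51.5% of the 11808 IDs and 53.3% of all tested features. The rule used these dark means, so the calls are a description. Bra039070 and Bra002999 were higher in LP08 dark (log2 fold change 2.53 and 1.61, edgeR adjusted p = 0.000504 and 0.00195). Without LP08 dark replicate 1 the values were 1.74 and 1.07 (adjusted p = 0.000454 and 0.00541). Bra022976 was higher as well (1.07, adjusted p = 0.000978), while Bra028406 and Bra030303 were lower (-2.74 and -0.98, adjusted p = 6.04e-05 and 0.0138). Without LP08 dark replicate 1 the value of Bra030303 was -1.5 (adjusted p = 7.64e-05), and its call was lost without LP08 dark replicate 2 (adjusted p = 0.054) or replicate 3 (0.0627).

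Line differences in light and in the dark were compared over the members, with the same limits on the dark calls. Of the 18 members higher in LP08 light, 6 were higher and 5 lower in LP08 dark, and 7 were not called there. Of the 2823 such IDs among the 11808, 43.1% were higher and 13.1% lower in LP08 dark. Of the 18 lower in LP08 light, 2 were higher and 10 lower in LP08 dark, and 6 were not called. Of the 1656 such IDs among the 11808, 9.90% were higher and 55.5% lower. Of the 53 members not called in light, 8 were higher (15.1%) and 15 lower (28.3%) in LP08 dark, and 30 (56.6%) were called in neither. Of the 7329 such IDs among the 11808, 22.6% were higher and 24.0% lower in LP08 dark, and 53.4% were called in neither. The fold changes had the same sign for 55 of the 89 members (61.8%), against 60.9% of the 11808 IDs and 65.8% of all tested features, and across members Pearson's r was 0.20 and Spearman's rho 0.15. The values come from 1 fit and are tied by the rule. The libraries of the lines did not overlap in light and in the dark, in opposite directions, for 11 members, where 7.8% of the 11808 IDs did so. They did not overlap in the same direction under both treatments for 18, where 25.1% of those IDs did so.

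**Figure D5:**
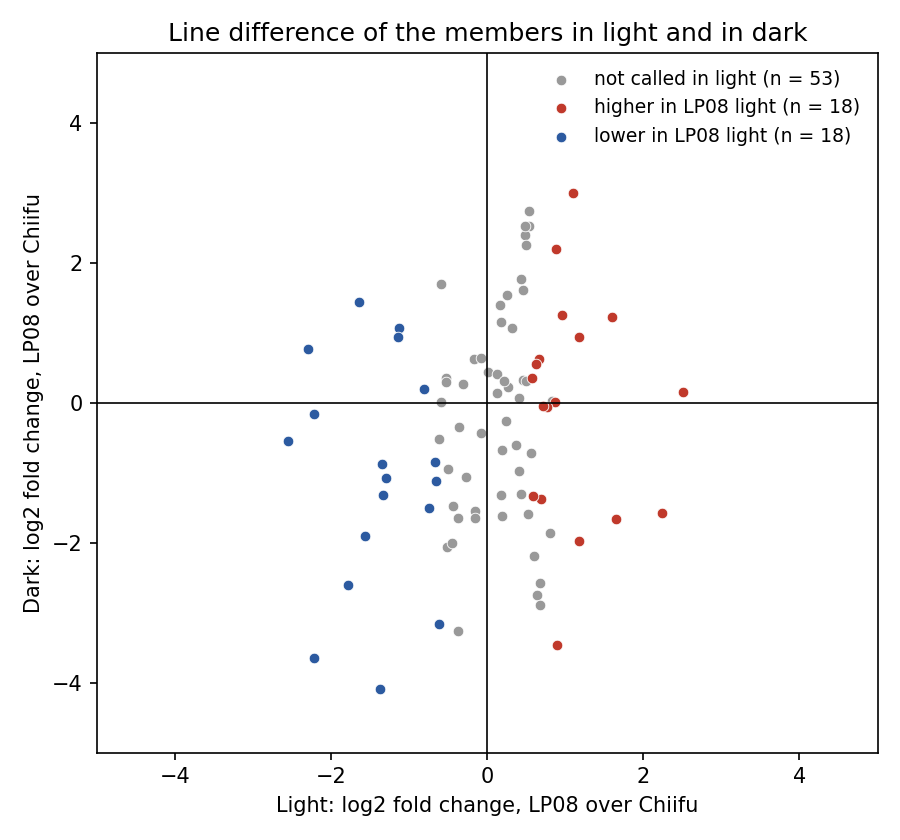
Fitted log2 fold change of LP08 over Chiifu for each member in the dark (vertical) against light (horizontal), coloured by the call in light (red higher in LP08, blue lower, grey not called). Points spread further along the vertical axis, from -4.09 to 3.00, than along the horizontal one, from -2.55 to 2.51.

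The limits of the rule cut through a continuous range. Just inside the limit of 1/32, Bra029046 had a dark mean of 3.12% of light in Chiifu and 0.371% in LP08, Bra030303 3.10% in Chiifu and 1.28% in LP08, and Bra026384 3.10% in LP08 and 1.24% in Chiifu. Just outside it, Bra011671 was at 3.13% in the line with the larger share, Bra016189 at 3.14% and Bra000583 at 3.17%. Bra029046 was at 35.6, 31.3 and 38.6 CPM in LP08 light and at 20.1, 16.2 and 16.6 CPM in Chiifu light, with 4, 8 and 8 reads in LP08 dark and 32, 47 and 15 in Chiifu dark. It was called higher in LP08 light (log2 fold change 1.17, SE 0.21, edgeR adjusted p = 0.000813) and lower in LP08 dark (-1.98, SE 0.36, adjusted p = 0.000613). Bra029046 was named for its dark share in Chiifu, which is made of the Chiifu light and dark means. Both of its calls are therefore a description. Bra026384 was at 22.7, 23.9 and 27.1 CPM in LP08 light and at 25.8, 23.9 and 24.6 CPM in Chiifu light, which overlap, with 34, 29 and 52 reads in LP08 dark and 10, 18 and 22 in Chiifu dark.

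By level, Bra024992 with 10.2 CPM and Bra023441 with 10.5 CPM, both in Chiifu light, were the members closest to the limit. Bra024992 was at 10.2, 12.1 and 15.8 CPM in LP08 light and at 10.6, 10.9 and 9.12 CPM in Chiifu light, with 8, 10 and 16 reads in LP08 dark and 1, 4 and 3 in Chiifu dark. Outside, Bra022422 at 9.67 CPM in LP08 light and Bra039617 at 8.79 CPM in Chiifu light met the ratio in both lines and missed the level in 1 of them.

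Taken line by line, 197 IDs met the level and the ratio in LP08 and 225 in Chiifu, so that the 89 shared members were 45.2% of the LP08 list and 39.6% of the Chiifu list. Of the 108 IDs that met the rule in LP08 and not in Chiifu, 67 reached 10 CPM in Chiifu light but kept more than 1/32 in Chiifu dark, 8 missed the level only and 33 missed both. Of the 136 that met it in Chiifu and not in LP08, 59 reached 10 CPM in LP08 light but kept more than 1/32 in LP08 dark, 21 missed the level only and 56 missed both. The light mean was a median of 10.5 times the dark mean in Chiifu over the first of these lists, and 9.10 times in LP08 over the second, among IDs with a dark read. These lists were chosen on the same libraries, and the counts are a description.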

How the data were processed

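The authors deposited 1 table of raw read counts per library, 12 in all, with no normalization; the values are whole numbers with a different total in each library. FastQC, TopHat2, featureCounts and edgeR are the tools listed in the submitters' processing notes, without versions or roles; build, annotation and strand setting are not given here. RNA was taken from whole seedlings and made into stranded mRNA libraries, per the labels' protocols.

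CPM use the unscaled total. Tests used edgeR 4.0.16 in R 4.3.3: filterByExpr by group (minimum count 10, minimum total 15), which kept 31239 features and all 89 members (kept through their light reads), TMM scaling, a mean per group over all 12 libraries, the robust quasi-likelihood F-test, and Benjamini-Hochberg adjustment over all tested features. Standard errors are those implied by F. The fit was tested on simulated data, where fitted fold changes were close to the true ones and false calls rare. It recovered most 4-fold changes but only part of the 2-fold ones, which failed a first criterion on the share recovered; that criterion was then restricted to 4-fold changes, so a difference that was not called may still exist. Every within-group pair of libraries differed by more than counting noise (chi-square per degree of freedom at least 13.7).

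The members and lists were chosen with earlier results of these data known. Members given by ID are the 5 highest in light; 3 called in each direction in light without overlap; the 3 smallest line differences; those nearest the limits; the 2 widest light replicates; and 2 called in each direction in the dark. Bra009007, Bra012784, Bra039967, Bra005424, Bra012203 and Bra040520 were added after their values were seen. None had no dark read. Lists of named Arabidopsis genes could not be joined to the IDs and gave no result. Alternatives were other scalings and filters, DESeq2 1.42.0, limma-voom (limma 3.58.1), a replicate block, fits of the 6 libraries compared, other limits of the rule, and leaving out each library.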

Additional observations from a re-analysis of the deposited data

Results flagged for a closer look

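For 5 of the members given by ID, the 3 LP08 and the 3 Chiifu libraries did not overlap in light. They did not overlap in the dark either, with the order of the lines turned. Over all members 11 showed this, where 7.8% of the 11808 IDs did so. With all 12 libraries in the fit, the light difference was not called for Bra028406 (edgeR adjusted p = 0.148) or Bra030303 (0.273). The lowest LP08 light library of Bra030303 was at 1611 CPM and the highest Chiifu light library at 1607 CPM. The log2 ratio of the LP08 mean to the Chiifu mean, light minus dark, was 4.37 for Bra009007, which was chosen after its values were seen, 3.29 for Bra028406, 3.07 for Bra029046, 1.28 for Bra030303 and -2.30 for Bra022976. Whether the line difference changes with light was not tested for them, because that difference is made of the contrasts of light against dark that chose the members.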

How the results depend on the processing

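The number of IDs that met the rule was 57 with 20 CPM in light, 162 with a dark limit of 1/16, 44 with 1/64, and 50 when every library had to meet the limits, and it was 84 to 95 when 1 library was left out and 100 with scaled totals. With only the compared libraries in the fit, calls in light were 60 (30 higher and 30 lower) and in the dark 23 (7 higher and 16 lower) of the 66 members that passed the filter. The cause was not tested. The members' share of LP08 light counts was 2.99% of scaled totals, against 2.66%. The scaling factors were 0.912, 0.915 and 0.850 in LP08 light and 0.976, 1.04 and 1.01 in Chiifu light. Shares of scaled totals in light therefore lie further apart between the lines than those of unscaled totals. Leaving out 1 dark library gave 0 to 3 members with no read in LP08 dark and 0 to 1 in Chiifu dark. The other alternatives moved the counts of called members by at most 1.5 times, with 26 to 48 in light and 40 to 47 in the dark over left-out libraries. Calls over all tested features moved as well. In light, limma-voom called 27 members higher and 27 lower. Over all features it called 6960 higher and 8109 lower, against 6670 and 7819 with edgeR. The 26 came without Chiifu light replicate 3, where 5239 features were higher and 6732 lower. The 48 came without Chiifu dark replicate 3, with 8130 and 8890. Of 519 alternative values for 26 line differences of members given by ID, 500 kept direction and call, 13 turned in sign without being called, 4 became calls and 2 lost their call. The turned ones were Bra035994 with library totals (-0.16), the stricter filter (-0.00331) and the 6 light libraries (-0.013), and Bra026384 with library totals (-0.0136). With 1 library left out Bra035994 ranged from -0.0881 to 0.18, Bra026744 from -0.21 to 0.0716, Bra037385 from -0.26 to 0.17 and Bra000031 from -0.0151 to 0.58. With the replicate block, 17 members were higher and 19 lower in light, and 15 and 29 in the dark. Over all tested features the block gave 6441 higher and 7576 lower in light, and 7729 and 8449 in the dark. The replicate numbers were not taken to pair the libraries: 9 of 18 same-numbered pairs correlated above 0.1 (range -0.39 to 0.44), and 4 of 12 libraries correlated best with their own number. Dark values are limited by depth, with 34 members under 30 reads in LP08 dark and 20 in Chiifu dark.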
